A study of Mus musculus with 8 samples.

Results

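Receptors for neurotrophins and for ligands of the GDNF family, together with the ligands Bdnf and Gdnf, were compared between dorsal root ganglia (DRGs) of a mouse model of Fabry disease (FD) and wildtype DRGs. The 9 genes were chosen by name: the receptors Ntrk2, Ntrk3 and Ngfr of the neurotrophins, Ret and its co-receptors Gfra1, Gfra2 and Gfra3, and the ligands Bdnf and Gdnf. They were 9 of 34763 gene symbols on the array and were read by 14 of its 55681 probes, all 14 of which were well above background on all 8 arrays and entered the test of 29432 probes. FD mice were male α-Gal A(-/0) animals on a C57BL/6 background, which lack the lysosomal enzyme α-galactosidase A, and controls were male wildtype C57BL/6J animals. Both were 20 to 24 weeks old and came from separate inbred colonies, so genotype and colony cannot be told apart. Each sample pooled the lumbar DRGs (L3 to L5) of 2 mice, ganglia whose sensory neurons supply the hind paw, which gave 4 FD and 4 wildtype samples from 8 mice per group.

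Neurotrophins are secreted survival and growth factors that bind Trk receptor tyrosine kinases and the receptor Ngfr (p75NTR), while ligands of the GDNF family bind a GFRα co-receptor, which then brings in the shared kinase Ret. In adult DRGs these receptors divide sensory neurons into classes. Ntrk3 (TrkC) marks proprioceptors and some mechanoreceptors, Ntrk2 (TrkB) marks low-threshold mechanoreceptors, Ret with Gfra2 marks nonpeptidergic nociceptors and some mechanoreceptors, and Gfra3, the co-receptor of artemin, is found mainly in peptidergic nociceptors. In bulk DRG RNA, fewer cells of a type and less RNA per cell cannot be told apart.

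The probes are DNA oligos of 60 bases that match the transcript strand, and their positions are those of the mouse build mm9 in the scanner files. Exon and UTR annotation on this build was not used here. Ntrk2 and Ntrk3 each had several probes, and these separate transcript variant 1, which encodes the full-length receptor with its kinase, from transcript variant 2, which encodes a receptor without kinase. The sequences below show what sets these probes apart. The probe of Ntrk3 variant 1 lies at chr7:85392044-85392103 (minus strand). Probes of different genes among the 9 shared no run of over 9 bases. In the probe of Ntrk3 variant 2 (chr7:85447515-85447574, minus strand) the capitals mark the closing stop codon of the receptor without kinase. The Ntrk2 probe (chr13:58979563-58979622, plus strand) reads a stretch that both variants hold.
Ntrk3 variant 1: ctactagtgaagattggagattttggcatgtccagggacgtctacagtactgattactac
Ntrk3 variant 2: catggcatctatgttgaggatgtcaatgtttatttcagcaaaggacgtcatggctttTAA
Ntrk2 shared: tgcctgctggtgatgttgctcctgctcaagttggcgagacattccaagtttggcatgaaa

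Gdnf and Ret, the ligand with the largest difference and its signalling receptor, were read by 1 probe each, at chr15:7787474-7787533 (plus strand) and chr6:118101791-118101850 (minus strand). Gfra1, the co-receptor that binds Gdnf, was read at chr19:58311604-58311663 (minus strand). The first 30 bases of each are given to identify the transcript stretch measured.
Gdnf: ctgatgtctcggtcgtttgtgttatacaac
Ret: ccataccgtgttgacttgtttttgtaatca
Gfra1: ccacaacttagaacagtttggattcaaggt

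RNA was labelled with 1 dye and hybridized to 8 Agilent arrays on a single slide. Between 56.5% and 60.8% of the probes were well above background per array, and no used spot was saturated. Signals are given as log2 of the processed intensity after quantile normalization, a scale on which 1 unit is a 2-fold difference and on which different probes cannot be ranked against each other. The targeted gene Gla read 16.51 to 16.71 in FD and 16.49 to 16.72 in wildtype (difference -0.03, adjusted p = 0.879). Whether its only probe lies in a stretch that the mutated allele has lost was not stated in the sources used here, so Gla does not check the group labels. Wildtype samples 1 and 2 lay at opposite ends of the second principal component, which held 20.4% of the variance, while the first separated the groups with 32.9%. The first row of the slide held FD samples 1 to 3 and wildtype sample 1, and the second row held the others. Differences were tested with limma, and p-values were adjusted by Benjamini-Hochberg over all 29432 probes. Nothing in the labels gave the litter or day of a sample, so these could not enter the test. The p-values set the difference between groups against the spread between these pools of mice, not between single mice.

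Gdnf and Gfra3 were upregulated in FD DRGs, Gdnf by 1.97-fold and Gfra3 by 1.33-fold, and the other 7 genes did not pass the adjusted test. These 2 called probes, both higher in FD, were 2 of 14, where 3.07% of all tested probes were called in either direction, 1.96% higher and 1.11% lower. Ret was 1.22-fold lower in FD, with every FD sample below every wildtype sample, and its adjusted p was 0.0605. In simulated data with 50 changed probes per fold size, the test called 0% of probes changed by 1.2-fold and 74% of those changed by 1.5-fold. These rates do not carry over, since 904 probes were called in the data, which makes the adjusted threshold less strict there. A difference near 1.2-fold could be called in the data (Ngfrap1, 1.21-fold, described below). At an unadjusted p under 0.05, 5 of the 14 probes passed, 3 higher and 2 lower in FD, against 17.6% of all probes in either direction and 6.98% in the lower direction. With the criteria of the methods, an unadjusted p of at most 0.01 by their unequal-variance test and a fold change of at least 1.2, 2 probes passed (Gdnf and Gfra3), against 3.56% of all probes. Groups did not overlap for 5 probes (35.7%), of which 4 were higher and 1 was lower in FD, where 13.4% of all probes did not overlap in either direction, 8.3% higher and 5.1% lower. The 14 differences lay on both sides of 0, with 6 above and 8 below and a median of -0.01, beside a median of 0.02 over all tested probes.

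**Figure D1:**
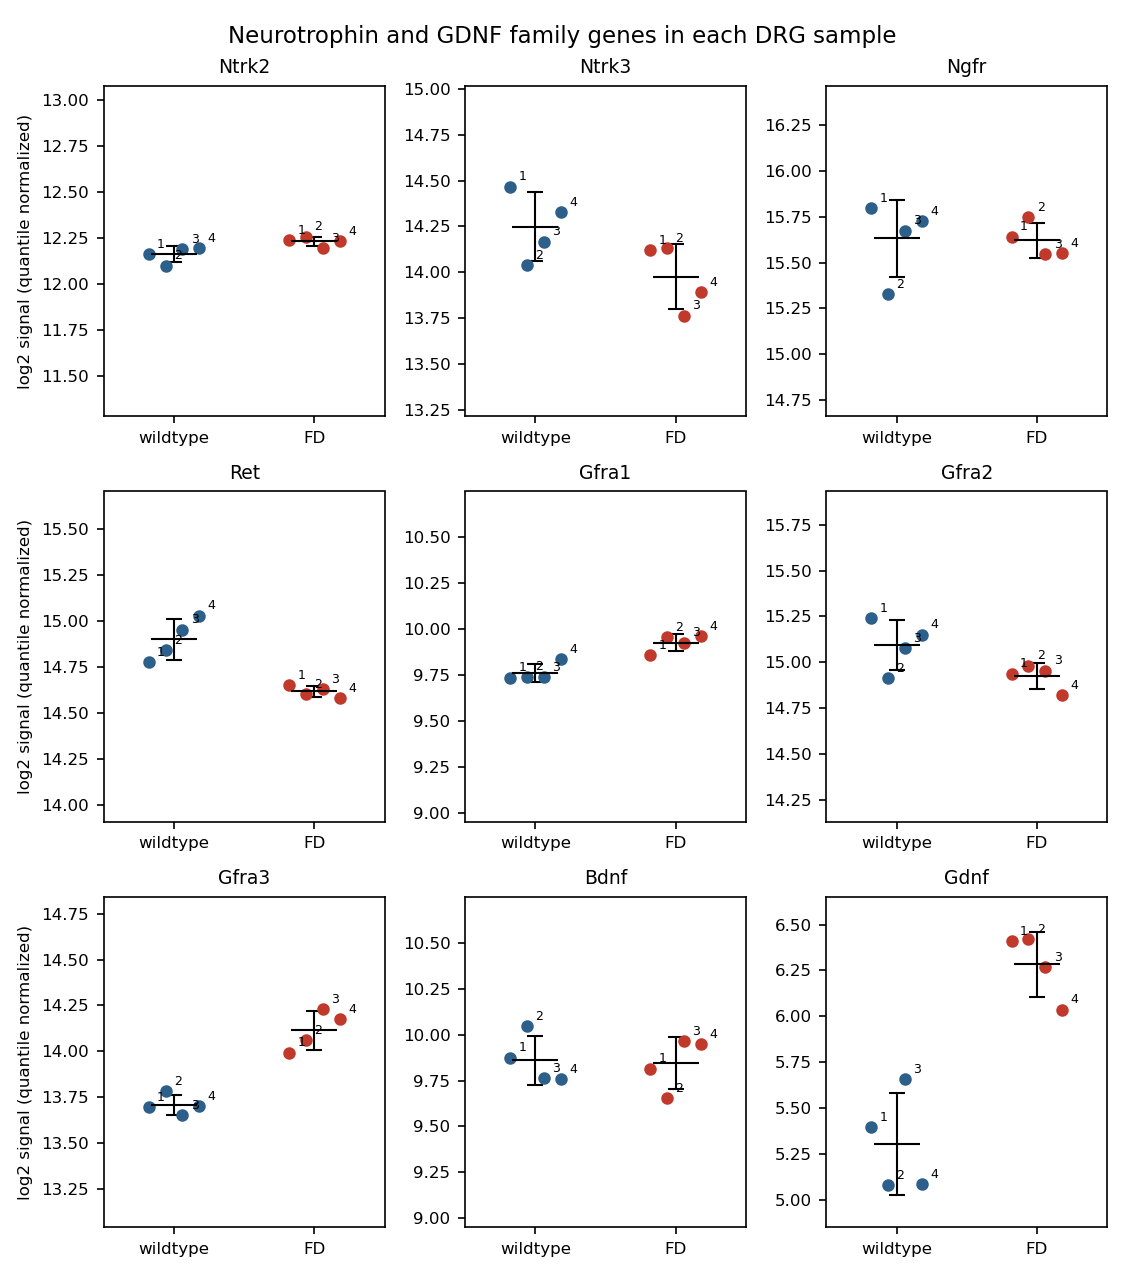
Log2 signal of the 9 genes (brightest probe of each) in the 4 wildtype (blue) and 4 FD (red) samples, with sample numbers, group means (wide bars) and SD (error bars); each vertical axis spans the same 1.8 log2 units. FD and wildtype samples are fully apart for Ntrk2, Ret, Gfra1, Gfra3 and Gdnf, with Gdnf showing the widest gap, from 5.66 in the highest wildtype to 6.04 in the lowest FD sample.

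Gdnf, the founding ligand of its family and a survival factor for sensory and motor neurons, had log2 signals of 6.41, 6.42, 6.27 and 6.04 in FD samples 1 to 4. In wildtype samples 1 to 4 they were 5.39, 5.08, 5.66 and 5.09. The groups did not overlap, with the lowest FD sample above the highest wildtype sample and means of 6.28 ± 0.179 (SD, n = 4) in FD and 5.30 ± 0.278 (SD, n = 4) in wildtype. The difference was 0.98 on the log2 scale (SE 0.145, 95% interval 0.65 to 1.31, limma adjusted p = 0.00912). The exact two-sided permutation test over the 8 samples gave p = 0.0286, the smallest value this design allows. Adjusted p ranged from 0.00473 to 0.0907 over 16 alternative settings and passed in 15.

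The Gdnf probe was dim, and its level in wildtype lay near the detection limit of the array. Before normalization its processed intensity was 67.6 to 93.8 in FD and 32.9 to 52.5 in wildtype. The dimmest probe well above background read 19.8 to 27.7 on the FD arrays and 19.1 to 30.2 on the wildtype arrays. Gdnf was thus 2.56 to 4.39 times that limit in FD and 1.10 to 1.93 times in wildtype, well above background in all 8 samples by the scanner's own call. With normexp background correction and an offset of 50, which compresses dim signals, the log2 difference was 0.46 and still passed. Within the first slide row it was 0.97, FD samples 1 to 3 against wildtype sample 1, and within the second row 0.76, FD sample 4 against wildtype samples 2 to 4.

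**Figure D2:**
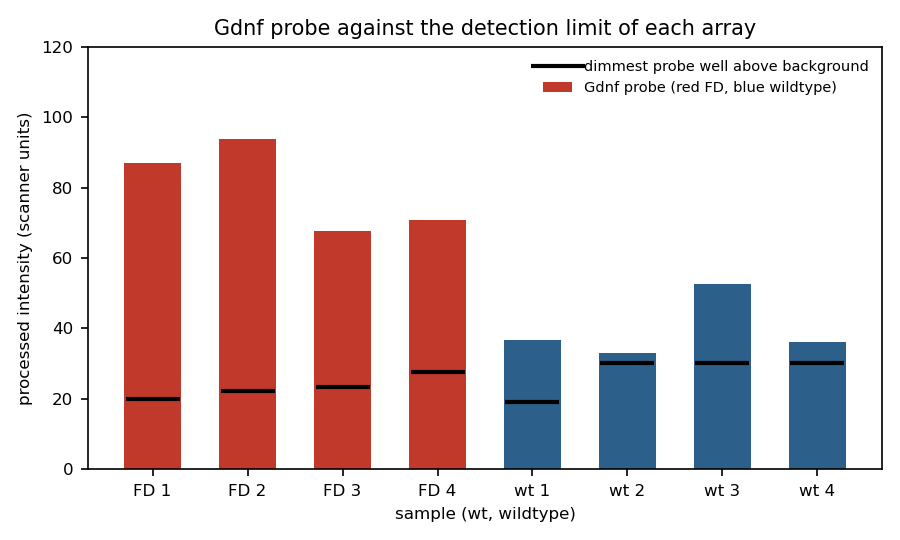
Processed intensity (scanner units, before normalization between arrays) of the Gdnf probe in each sample (bars, red FD, blue wildtype) and of the dimmest probe well above background on the same array (black lines). The FD bars (67.6 to 93.8) are all above the wildtype bars (32.9 to 52.5), and the wildtype bars come close to the black lines, by a factor of 1.10 in the nearest sample.

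Gfra3, the co-receptor that binds artemin and signals through Ret, was read by 1 probe (chr18:34849560-34849619, minus strand). Its log2 signals were 13.99, 14.06, 14.23 and 14.18 in FD samples 1 to 4. The wildtype signals were 13.69, 13.78, 13.65 and 13.70, all below the lowest FD sample. Means were 14.11 ± 0.107 (SD, n = 4) in FD and 13.71 ± 0.054 (SD, n = 4) in wildtype, a difference of 0.41 (SE 0.068, 95% interval 0.25 to 0.56, limma adjusted p = 0.0168). The exact permutation p was again 0.0286. Gfra3 passed in 11 of 16 alternative settings, with adjusted p from 0.00697 to 0.0980. Leaving out a single sample was enough to lose the call: adjusted p was 0.0586 without FD sample 4, 0.0541 without wildtype sample 3 and 0.0513 without wildtype sample 4, at log2 differences of 0.39, 0.39 and 0.40. Within the slide rows the differences were 0.40 and 0.46.

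Ret, the receptor tyrosine kinase shared by all GFRα co-receptors, had log2 signals of 14.65, 14.60, 14.63 and 14.58 in FD samples 1 to 4. Wildtype samples 1 to 4 read 14.78, 14.84, 14.95 and 15.03. The groups did not overlap, and the FD samples were closer together (14.62 ± 0.031, SD, n = 4) than the wildtype samples (14.90 ± 0.113, SD, n = 4). The difference was -0.28 (SE 0.067, 95% interval -0.44 to -0.13), with a limma adjusted p of 0.0605. Without wildtype sample 1, the lowest of its group for Ret, the difference was -0.33 and its adjusted p 0.0303. With array weights, which give less weight to arrays that fit poorly, it was -0.34 and adjusted p was 0.00789. Ret passed in only these 2 of 16 alternative settings. Its highest adjusted p was 0.190, by the unequal-variance test of the methods. Ret was lower in FD within both slide rows, by a log2 difference of -0.15 in the first and -0.36 in the second row.

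Gfra1, the co-receptor that binds Gdnf itself, had log2 signals of 9.86, 9.96, 9.93 and 9.96 in FD. The wildtype signals were 9.74, 9.74, 9.74 and 9.84, and the highest of these lay just under the lowest FD sample. The difference of 0.16 (SE 0.054, 95% interval 0.04 to 0.29) had a limma adjusted p of 0.157. Gfra2, the co-receptor that binds neurturin, was read at chr14:71379586-71379645 (plus strand) and had signals of 14.94, 14.98, 14.95 and 14.82 in FD. In wildtype they were 15.24, 14.92, 15.08 and 15.15, so that wildtype sample 2 fell among the FD samples. The Gfra2 difference was -0.17 (SE 0.079, 95% interval -0.35 to 0.01, adjusted p = 0.302). The 4 receptors of the GDNF family therefore differed in both directions, with Gfra1 and Gfra3 above 0 and Ret and Gfra2 below 0, and of these only the Gfra3 difference passed the adjusted test.

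**Figure D3:**
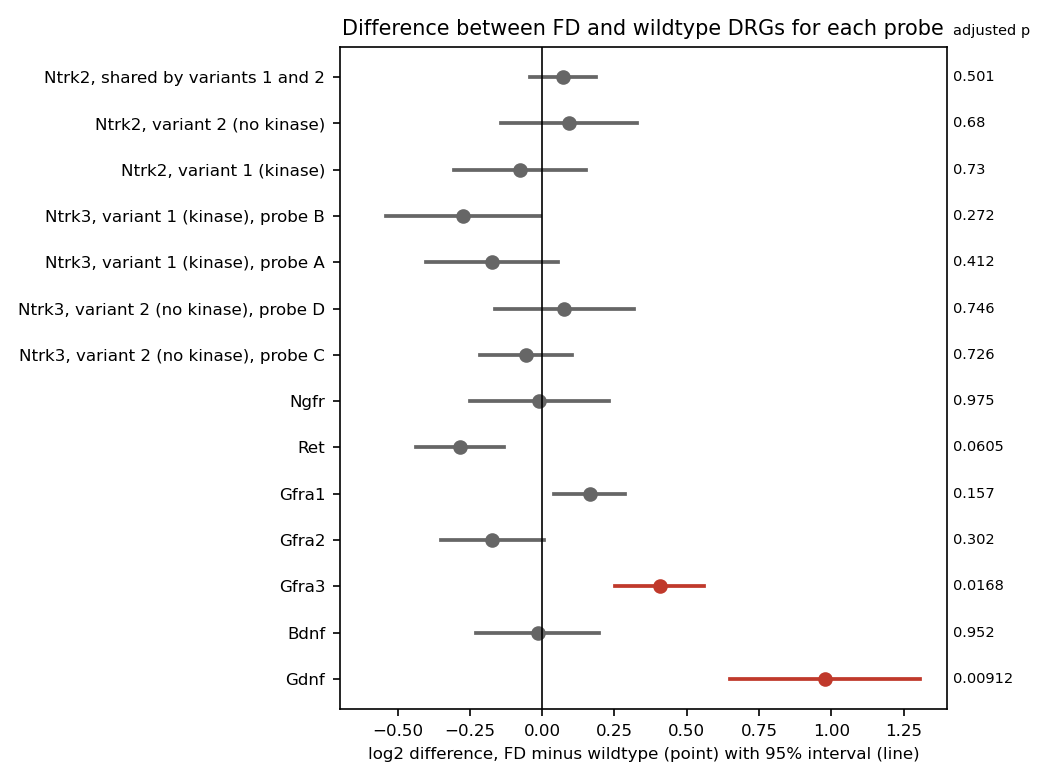
Log2 difference between FD and wildtype (points, 4 samples per group) with its 95% interval (lines) for the 14 probes, and the limma adjusted p at the right; red marks an adjusted p under 0.05. Gdnf (0.98) and Gfra3 (0.41) are the red points. The intervals of Ret, Gfra1 and Ntrk3 probe B also lie to one side of 0, but these probes were not called. Letters A to D name the 4 Ntrk3 probes.

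Ntrk3, the receptor of neurotrophin 3, was read by 4 probes. Probe B of variant 1 (chr7:85337455-85337514, minus strand), the brightest, gave log2 signals of 14.12, 14.13, 13.76 and 13.89 in FD and 14.47, 14.04, 14.17 and 14.33 in wildtype. Its difference was -0.27 (SE 0.117, 95% interval -0.54 to -0.01), with a limma adjusted p of 0.272. Probe A of variant 1, whose sequence is printed above, read 12.06, 12.22, 11.89 and 11.86 in FD and 12.36, 12.04, 12.13 and 12.18 in wildtype. Both probes were highest in wildtype sample 1 and lowest in FD samples 3 and 4, and their groups overlapped. The difference of probe A was -0.17 (SE 0.100, adjusted p = 0.412). Probe C of variant 2, which holds the stop codon, differed by -0.05 (adjusted p = 0.726). Probe D, also of variant 2 (chr7:85445908-85445967, minus strand), differed by 0.08 (adjusted p = 0.746).

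The distance between the variants was also taken within each sample, as the mean log2 signal of the kinase probes minus that of the variant 2 probes, a contrast chosen after the values were seen. It was 3.102, 3.170, 2.845 and 3.044 in FD samples 1 to 4 and 3.441, 3.134, 3.187 and 3.335 in wildtype. Only FD sample 2 reached into the wildtype range, and the groups differed by -0.23 (exact two-sided permutation p = 0.0571, or 0.114 adjusted over the Ntrk2 and Ntrk3 contrasts). In the fit across all genes with several probes, no probe of Ntrk2 or Ntrk3 differed from the other probes of its gene (smallest adjusted p = 0.701, limma diffSplice), where 0.926% of 14256 probes did. In the simulated data, the same test of probes within a gene called 0% of the tested probes changed by 1.2-fold and 70% of those changed by 1.5-fold. Whether these rates carry over to the measured data was not tested.

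**Figure D4:**
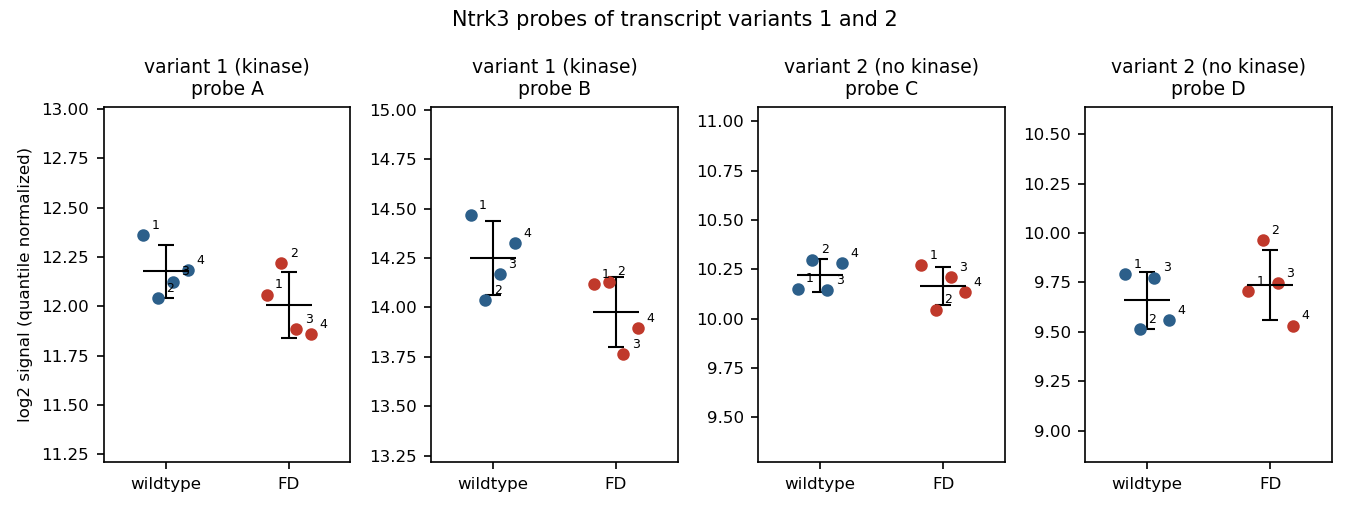
Log2 signal of the 4 Ntrk3 probes in wildtype (blue) and FD (red) samples, with sample numbers, group means (wide bars) and SD (error bars). The FD means of the kinase probes A and B lie 0.17 and 0.27 below wildtype with overlapping samples, and the means of probes C and D differ by -0.05 and 0.08.

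Ntrk2, the receptor of Bdnf, differed by less than 0.1 on the log2 scale with each of its 3 probes. The probe shared by both variants gave 12.24, 12.26, 12.20 and 12.24 in FD and 12.16, 12.10, 12.19 and 12.20 in wildtype. The groups did not overlap, although the lowest FD and the highest wildtype sample both rounded to 12.20, and the difference was 0.07 (SE 0.050, 95% interval -0.04 to 0.19, adjusted p = 0.501). The probe of variant 2 alone (chr13:59038046-59038105, plus strand) differed by 0.09 (SE 0.103, adjusted p = 0.680). The probe of variant 1 (chr13:59230936-59230995, plus strand) was printed as 10 spots per array, whose SD within an array was 0.020 to 0.044. Its groups overlapped, and it differed by -0.08 (SE 0.100, adjusted p = 0.730). The 95% intervals were -0.14 to 0.33 for the variant 2 probe and -0.30 to 0.15 for the variant 1 probe, both wider than that of the shared probe.

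Ngfr, the receptor that binds all neurotrophins and is made by neurons and glia, was also printed as 10 spots (chr11:95430211-95430270, minus strand), with an SD of 0.028 to 0.054 within an array. Its log2 signals were 15.64, 15.75, 15.55 and 15.55 in FD and 15.80, 15.33, 15.67 and 15.73 in wildtype. Wildtype samples 1 and 2 were the highest and the lowest of all 8, so the FD samples lay between them. The FD mean differed by -0.01 (SE 0.105, 95% interval -0.25 to 0.23, adjusted p = 0.975). Bdnf, the ligand of Ntrk2, which nociceptors also make (chr2:109566961-109567020, plus strand), read 9.82, 9.65, 9.96 and 9.95 in FD and 9.88, 10.05, 9.76 and 9.76 in wildtype. The samples of both groups were interleaved, and the difference was -0.01 (SE 0.094, 95% interval -0.23 to 0.20, adjusted p = 0.952). Of the ligands Bdnf and Gdnf, only Gdnf was thus called.

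Several receptors shared the same extreme sample. Wildtype sample 1 was the highest of all 8 for the variant 1 probes of Ntrk2 and Ntrk3, for Ngfr and for Gfra2, and it was the lowest wildtype sample for Ret. That sample also stood at one end of the second principal component, and the part of this in the receptor values was not tested.

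Genes of the same pathways were taken as 6 lists, and of the 104 listed genes on the array 92 had a tested probe. In these lists 1 gene was higher and 2 were lower in FD (3.26% of 92), beside 3.12% of all 21063 tested genes (426 higher and 231 lower). Their median difference was -0.02, against 0.02 over all genes. The lists were drawn up with earlier results of these data known, and the counts are descriptive.

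None of the other ligands was called. Of 7 listed symbols, 6 were on the array (all but Ntf4) and 3 were tested. All 3 lay above 0: neurotrophin 3 (Ntf3) by 0.29 (SE 0.227, adjusted p = 0.545), artemin (Artn), the ligand of Gfra3, by 0.29 (SE 0.158, adjusted p = 0.381), and neurturin (Nrtn), the ligand of Gfra2, by 0.10 (adjusted p = 0.467). Artn was dim and overlapped, with 5.50, 5.87, 5.98 and 5.47 in FD and 5.37, 5.12, 5.43 and 5.74 in wildtype. Persephin (Pspn) and Ntf5 were well above background on 0 arrays and Gdf15 on 6, so none of these was tested.

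Among 10 tested receptors and co-receptors outside the 9 genes, none was called, and 5 lay above and 5 below 0. The smallest adjusted p values were those of Lingo1, a co-receptor of Ngfr, at a log2 difference of -0.27 (SE 0.139, adjusted p = 0.359), and of Rtn4r, the Nogo receptor that pairs with Ngfr, at 0.26 (SE 0.168, adjusted p = 0.465).

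Of 22 tested adaptors and scaffolds, 1 was called: Ngfrap1 (Bex3), which binds the cytoplasmic part of Ngfr, was higher in FD by 0.27 (SE 0.056, adjusted p = 0.0372). Its log2 signals were 13.29, 13.24, 13.33 and 13.34 in FD and between 12.95 and 13.09 in wildtype, without overlap. Its relative Bex1 was called with 1 of 2 probes. The brightest Bex1 probe differed by 0.17 (adjusted p = 0.160). Kidins220, a scaffold under Trk receptors, differed by 0.18 (adjusted p = 0.181). Grb10, an adaptor that binds Ret, differed by 0.30 (adjusted p = 0.172), and neither passed. Dok4, also in this list, went the other way, with a difference of -0.21 (adjusted p = 0.113), and was not called. Of the 22 genes, 11 lay above and 11 below 0.

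Among 22 tested negative regulators and trafficking genes, Cbl and Lrig1 fell. Cbl is a ubiquitin ligase that marks activated receptor tyrosine kinases for degradation, and its difference of -0.59 (SE 0.115, adjusted p = 0.0311) was the largest in the pathway lists. Cbl read 9.45, 9.27, 8.97 and 9.19 in FD and 10.05, 9.71, 9.79 and 9.70 in wildtype, without overlap. Lrig1, a membrane protein that restrains receptor tyrosine kinases including Ret, fell by 0.27 on the log2 scale (SE 0.052, adjusted p = 0.0311). Its samples were 9.23, 9.24, 9.17 and 9.12 in FD and between 9.43 and 9.47 in wildtype. The calls of these 3 pathway genes rested on the full set of samples. Leaving out 1 sample gave 0 called pathway genes without FD sample 2, 3 or 4 or wildtype sample 3 or 4. Only Cbl was called without FD sample 1, and only Ngfrap1 without wildtype sample 2. Without wildtype sample 1, 3 were called: Cbl, Ngfrap1 and Creb1. Lrig1 thus lost its call whichever sample was left out.

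None of 26 tested downstream kinases and effectors was called. At an unadjusted p under 0.05, 1 was higher and 2 were lower (11.5%, beside 17.7% of all genes), and the lowest was Creb1, a transcription factor activated by neurotrophins, at -0.39 (adjusted p = 0.116). None of 9 tested proteases and other genes of ligand processing was called, and at the unadjusted threshold 2 were lower (22.2%).

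**Figure D5:**
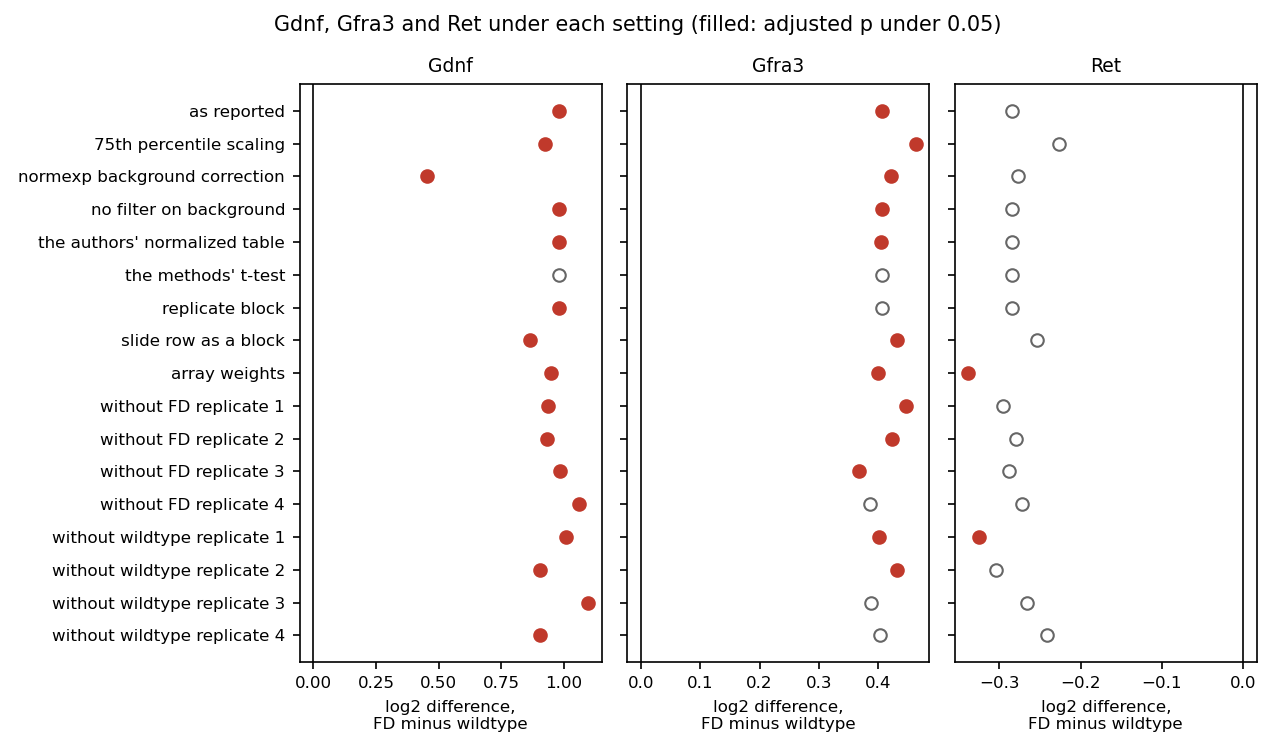
Log2 difference between FD and wildtype for Gdnf, Gfra3 and Ret as reported and under 16 alternative settings (rows); filled red points have an adjusted p under 0.05, and each horizontal axis has its own range. Gdnf is filled in all rows but that of the methods' t-test, Gfra3 is open in 5 rows, and Ret is filled with array weights and without wildtype sample 1.

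Markers of the cells that make these receptors and ligands were set beside the results. Of 12 pan-neuronal markers 1 was called, Snap25, a protein of synaptic vesicle release, which fell by 0.47 on the log2 scale (adjusted p = 0.00443). All 8 tested markers of sensory neuron identity lay below 0 with none called, and 2 passed at an unadjusted p under 0.05. The mean log2 level of the 8 was 12.39 to 12.58 in FD and 12.56 to 12.67 in wildtype. Schwann cells and satellite glia can make Gdnf. None of 10 Schwann cell and myelin markers was called and all 10 lay below 0 (mean log2 level 12.11 to 12.28 in FD and 12.18 to 12.48 in wildtype). Of the 10, 3 passed at an unadjusted p under 0.05, all lower in FD. None of 9 satellite glia markers was called (12.37 to 12.54 in FD and 12.36 to 12.49 in wildtype), and 1 passed at the unadjusted threshold, lower in FD. None of 8 endothelial markers was called, but 7 lay below 0 and 4 passed at an unadjusted p under 0.05, all lower in FD. Their mean log2 level did not overlap between the groups, at 9.30 to 9.40 in FD and 9.44 to 9.58 in wildtype. None of 8 fibroblast markers was called and all 8 lay below 0 (11.62 to 11.92 in FD and 11.82 to 12.11 in wildtype). Of the 8, 2 passed at the unadjusted threshold, both lower in FD. None of 9 macrophage markers was called and 8 lay below 0 (9.35 to 9.83 in FD and 9.52 to 9.83 in wildtype). At the unadjusted threshold 1 was higher and 1 was lower. Over all genes, 55.7% lay above 0 and 17.7% passed at the unadjusted threshold. Intensities of a list were also summed before log2, so that bright probes count most. These summed levels were lower in FD without overlap for sensory neuron identity (17.45 to 17.52, wildtype 17.60 to 17.62). The same held for Schwann cell (16.83 to 16.95, wildtype 16.96 to 17.12), fibroblast (16.76 to 16.95, wildtype 17.00 to 17.22) and endothelial markers. They overlapped for pan-neuronal, satellite glia and macrophage markers. Of 8 spinal cord markers 4 were tested and 1 was called, Aqp4, a water channel of astrocytes, which was higher by 0.39 (adjusted p = 0.0411). At the unadjusted threshold 2 of the 4 were higher and 1 was lower. The mean log2 level of the 4 overlapped (7.69 to 7.97 in FD and 7.70 to 7.80 in wildtype). Their summed level did not (10.07 to 10.21 in FD and 9.85 to 9.95 in wildtype). The part of these markers in the receptor values was not tested.

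Genes induced in DRGs by nerve injury were set beside these results. Of 11 tested, 2 were called (18.2%, beside 3.12% of all genes), both higher in FD: the transcription factor Atf3 by 1.44 (SE 0.157, adjusted p = 0.00193) and the neuropeptide galanin (Gal) by 0.52 (SE 0.064, adjusted p = 0.00374). The mean log2 level of the 11 was 11.14 to 11.44 in FD and 10.67 to 11.02 in wildtype, and 10 of 11 lay above 0, as did 55.7% of all genes. At an unadjusted p under 0.05, 8 of 11 passed (72.7%), all higher in FD, beside 17.7% of all genes in either direction. The part of this in the Gdnf, Gfra3 and Ret values was not tested.

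The tested genes whose signal ran most like that of Gfra3 over the 8 samples were Pygl, the liver form of glycogen phosphorylase (Pearson r = 0.988), and the olfactory receptor gene Olfr576 (0.984). For Gdnf they were Neurl2 (0.977), Rras2, a small GTPase (0.977), and Dgke, a diacylglycerol kinase (0.975). These correlations include the difference between the groups and are descriptions. The neighbours of each of the 9 genes within 1 Mb on mm9 were also counted. None of 12 tested neighbours of Gdnf, 30 of Gfra3 or 17 of Ret was called, beside 3.12% of all tested genes. Near Ntrk3, 1 of 9 was called (Hapln3, higher in FD), and near Ngfr 1 of 51 (Spop, lower). No neighbour of Ntrk2, Gfra1, Gfra2 or Bdnf was called. The part of the separate colonies in these values was not tested.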

How the data were processed

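RNA of 8 samples was measured on 1-color Agilent SurePrint G3 arrays. The deposited scanner files hold the processed intensity of each spot, which the authors obtained with Agilent Feature Extraction 10.7.3.1, per the labels, as a background-adjusted and detrended signal. The authors' table of log2 values, quantile normalized in GeneSpring and centred on equal medians, served as an alternative.

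Groups came from the sample labels. Control spots and outlier spots (93 to 221 per array) were left out, and log2 intensities of the spots of one probe were averaged. The probe values were then quantile normalized, the type of normalization named in the methods. Probes well above background on all 8 arrays were tested with limma 3.58.1 (R 4.3.3, 6 residual degrees of freedom) and Benjamini-Hochberg adjustment over 29432 probes, at an adjusted p under 0.05. The precision is limited by 4 arrays per group. Where a gene had several probes, the brightest over all samples stood for it in list counts. Symbols of 28026 probes came from RefSeq accessions, and the other 27655 kept the name in the file. The fit was tested on simulated data with 50 changed probes per fold size. It called 0% of them at 1.2-fold, 74% at 1.5-fold, 98% at 2-fold and 94% at 4-fold. Fewer probes were changed there than were called in the data (904), so its adjusted threshold was stricter than that of the data.

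The 9 genes, the gene lists and the tests were chosen with earlier results of these data known. All 9 genes and their probes are named, as are up to 4 genes per list with the smallest adjusted p, of which only some are described, every called pathway gene, and the 3 genes most correlated with each called gene; a few genes are not reported here and were left out of the lists. Alternatives were scaling to the 75th percentile, normexp, no filter on background, the authors' table, the methods' t-test for unequal variances, a replicate block, the slide row as a block, array weights, and leaving out each sample.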

Additional observations from a re-analysis of the deposited data

Results flagged for a closer look

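Gfra1 in wildtype sample 4 (log2 signal 9.84) stood apart from the other wildtype samples, which all read 9.74. Its gap to the next sample was 0.948 of the range of the group, above the 95% limit of Dixon's test for 4 samples. This was 1 of 28 groups checked, and chance flags about 5% of groups. The flagged sample lay toward the FD samples, the lowest of which read 9.86.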

How the results depend on the processing

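Gdnf, Gfra3 and Ret kept their sign in all 16 alternatives. With the methods' t-test no gene of the 9 was called after adjustment (0 probes, 5 at an unadjusted p under 0.05, where 14.9% of all probes passed), with Gdnf at 0.98 and adjusted p = 0.0907 and Gfra3 at 0.41 and adjusted p = 0.0873. Array weights gave Ret a difference of -0.34, past the threshold. Leaving out 1 sample at a time gave 1 to 3 called probes among the 14, with log2 differences of 0.90 to 1.10 for Gdnf, 0.37 to 0.45 for Gfra3 and -0.33 to -0.24 for Ret. The differences of Ngfr and Bdnf, near 0, changed sign in some settings and were never called. No setting called a difference between the probes of Ntrk2 or Ntrk3.

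Over all tested probes 904 were called, against 556 without a filter on background, 266 by the methods' t-test, 2102 with array weights and 414 to 1038 with 1 sample left out. The pathway genes called numbered 3, against 1 without the filter (Lrig1), 0 by the methods' t-test, 7 with array weights and 0 to 3 with 1 sample left out. The cause of these shifts was not tested.

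Replicate numbers did not pair the samples: deviations of samples with the same number correlated between -0.25 and 0.06, and only 1 of 4 FD samples correlated best with the wildtype sample of its number. With the replicate block, 284 probes were called, 1 probe of the 9 genes (Gdnf) and 1 pathway gene (Cbl), and Gfra3 stayed at 0.41 with adjusted p = 0.0980. Gdnf in wildtype lay near the detection limit, so the size of its difference depends on background correction.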
